A study of Mus musculus with 33 samples.

Results

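The 10 genes described here encode the enzymes that make fatty acids from acetyl-CoA in the liver, together with lipogenic partner proteins and the transcription factor SREBP1. They were Acly, Acaca, Acacb, Fasn, Elovl6, Scd1, Me1, Thrsp, Srebf1 and Pnpla3, matched by gene symbol and Ensembl identifier, and made up 10 of the 25988 genes of the count table. All 10 passed the filter on low counts, which kept 10179 genes. RNA was measured in 33 liver libraries by QuantSeq, a method that places 1 read near the 3′ end of each transcript, so that the transcripts of a gene that share this end are counted together.

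All animals were male C57BL/6J mice aged 13 to 18 weeks when infected with the shRNA virus, carried floxed G6pc alleles and received tamoxifen after this AAV2/8 virus, which encodes the shRNA under a U6 promoter. L-G6pc-/- mice carry a tamoxifen-inducible Cre under the serum albumin promoter, which removes glucose-6-phosphatase from hepatocytes, and serve as a model of hepatic glycogen storage disease type Ia; the L-G6pc+/+ controls lack the Cre. The shRNA was directed against ChREBP (shChREBP) or scrambled (shSCR), and non-fasted mice were killed 10 days after tamoxifen. The groups were shSCR/L-G6pc+/+ with 8 libraries (s1 to s8), shChREBP/L-G6pc+/+ with 8 (s9 to s16), shSCR/L-G6pc-/- with 8 (s17 to s24) and shChREBP/L-G6pc-/- with 9 (s25 to s33). Whether every library came from its own mouse is not given in the labels, so n counts libraries and the p-values measure the spread between libraries.

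In de novo lipogenesis, citrate that leaves the mitochondria is split into acetyl-CoA by Acly, carboxylated to malonyl-CoA by acetyl-CoA carboxylase and polymerised to palmitate by fatty acid synthase, after which an elongase and a desaturase make longer and monounsaturated fatty acids. In liver this pathway is driven by ChREBP (gene Mlxipl), which responds to intracellular glucose metabolites, and by SREBP1c, an isoform from Srebf1 that responds to insulin. The Srebf1 counts do not separate SREBP1a from SREBP1c, nor do the Mlxipl counts separate ChREBP-alpha from ChREBP-beta.

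The shRNA target is shown because it decides which gene the knockdown acts on. Its 21 bases lie in Mlxipl at chr5:135128544-135128564 (GRCm38, plus strand), in exon 8 of 17 of the transcript ENSMUST00000005507.9, and 5 of the 10 annotated Mlxipl transcripts hold them (capitals, the whole target).
Mlxipl target: ACCCACATCTTCAAACTACAT
The longest run of target bases found in any annotated transcript of the 10 genes was 10, in Acaca and Acacb.

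Promoter sequence is shown for a pair of members that moved in the main comparisons, Fasn and Acly, and for Pklr, a ChREBP target of glycolysis. The windows are the 250 bases before a start (for Pklr, its second annotated start), and were searched on both strands for 5 motifs. The E-box was searched as CACGTG. The sterol response element, which SREBP binds, was searched as TCACNCCAC. The CCAAT box was searched by the letters of its name and the GC box as GGGCGG. The carbohydrate response element, which ChREBP binds, is built from paired E-box-like motifs. Windows and starts are those of the RefSeq annotation of GRCm38.p6, and matches are in capitals.
Fasn, chr11:120824548-120824797, minus strand: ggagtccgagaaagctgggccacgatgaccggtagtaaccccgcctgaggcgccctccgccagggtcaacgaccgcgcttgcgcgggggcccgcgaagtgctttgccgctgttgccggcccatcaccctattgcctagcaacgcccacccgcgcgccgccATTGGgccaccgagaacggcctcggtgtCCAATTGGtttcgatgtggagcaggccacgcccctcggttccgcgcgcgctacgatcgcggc
Acly, chr11:100528001-100528250, minus strand: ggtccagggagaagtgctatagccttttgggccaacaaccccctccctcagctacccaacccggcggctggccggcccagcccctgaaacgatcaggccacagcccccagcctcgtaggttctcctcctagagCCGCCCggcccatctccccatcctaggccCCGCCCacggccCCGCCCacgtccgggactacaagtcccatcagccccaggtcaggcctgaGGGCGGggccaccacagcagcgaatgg
Pklr, chr3:89136373-89136622, plus strand: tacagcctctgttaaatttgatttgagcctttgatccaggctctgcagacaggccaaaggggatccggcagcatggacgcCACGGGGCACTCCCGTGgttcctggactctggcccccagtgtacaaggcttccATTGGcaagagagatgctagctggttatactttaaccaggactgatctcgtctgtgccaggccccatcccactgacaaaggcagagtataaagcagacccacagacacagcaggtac
The Fasn window held 3 CCAAT matches, 2 of which overlap, the Acly window 4 GC boxes, and the Pklr window 1 carbohydrate response element and 1 CCAAT match. Of the 9 members with a window in the table (12 windows), 6 held CCAAT and 4 held GGGCGG. By windows, 7 of the 12 held CCAAT and 5 held GGGCGG, motifs found in 33.8% and 32.7% of all 32851 windows. None of the 12 member windows held the E-box, the sterol response element or the carbohydrate response element in these letters, which were found in 6.02%, 1.05% and 0.0974% of all windows. Elements outside these windows were not searched.

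The knockdown was visible in its target. Mlxipl was at 449 to 612 CPM (counts scaled to a common library total, median 528) in shSCR/L-G6pc+/+ and at 292 to 413 CPM (median 395) in shChREBP/L-G6pc+/+, a level 1.46-fold lower (adjusted p = 0.0129, edgeR). It was at 514 to 633 CPM (median 578) in shSCR/L-G6pc-/- and at 216 to 500.4 CPM (median 441) in shChREBP/L-G6pc-/-, 1.49-fold lower (adjusted p = 0.00417). Within each genotype the shSCR and shChREBP libraries did not overlap. G6pc was read at 158 to 752 CPM in shSCR/L-G6pc-/- and at 78.7 to 364 CPM in shSCR/L-G6pc+/+; these reads need not include the deleted part of the gene, so they do not check the genotype.

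Total counts ran from 1497843 to 3546852 per library. The hepatocyte markers, led by transferrin (Trf) and albumin (Alb), were detected in all 33 libraries. Of 10 adipocyte markers, read because fat tissue also makes fatty acids, Adipoq had 26 counts over all libraries, Plin1 2 and Lep 2, whereas Fabp4 (12.1 to 112 CPM) and Lpl (32.6 to 148 CPM) had counts in all 33. The summed level of the 10 was 75.4 to 115 CPM (median 92.5) in shSCR/L-G6pc+/+, 68.4 to 168 (median 103) in shChREBP/L-G6pc+/+, 64.9 to 215 (median 146) in shSCR/L-G6pc-/- and, with shChREBP in that genotype, 145 to 211 (median 191), and its part in the results was not tested. The summed level of 11 hepatocyte markers was 60238 to 78985 CPM in shSCR/L-G6pc+/+, 61289 to 75334 in shChREBP/L-G6pc+/+, 51036 to 59776 in shSCR/L-G6pc-/- and, with shChREBP in that genotype, 41676 to 62213. Its group medians were 63678, 63676, 56309 and 48305 CPM in the same order. The sum thus differed with the genotype, and its median was also lower with shChREBP within L-G6pc-/-. Its part in the results below was not tested. In bulk liver RNA, fewer cells of a type and less RNA per cell cannot be told apart. Library s6 of shSCR/L-G6pc+/+ and library s12 of shChREBP/L-G6pc+/+ stood apart from the rest of their groups: each was the highest of its 8 libraries for all 10 genes, whereas it was the highest for 12.7% (s6) and 13.5% (s12) of all genes tested. Many of the results below are given with and without them. Libraries s29, s30, s32 and s33 of shChREBP/L-G6pc-/- had the lowest Mlxipl levels of that group, 216 to 359 CPM, and were also left out together.

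Acly, ATP citrate lyase (ENSMUSG00000020917, chr11:100476353-100528000, minus strand), makes cytosolic acetyl-CoA from citrate. Its level was 100.1 to 346 CPM (median 172) in shSCR/L-G6pc+/+ and 67.3 to 232 CPM (median 95.4) in shChREBP/L-G6pc+/+. In the L-G6pc-/- liver it was 495 to 788 CPM (median 629) with shSCR and 151 to 362 CPM (median 246) with shChREBP. All 8 shSCR/L-G6pc-/- libraries lay above every library of the other groups.

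Acaca and Acacb encode acetyl-CoA carboxylases. The product of Acaca (chr11:84129672-84401651) supplies malonyl-CoA for synthesis, and that of Acacb (chr5:114146535-114250761) makes it at the mitochondrial surface, where malonyl-CoA restrains fatty acid import. Acaca was at 27.7 to 77.9 CPM (median 37.6) in shSCR/L-G6pc+/+, 13.3 to 34.8 (median 22.8) in shChREBP/L-G6pc+/+, 76.2 to 169 (median 121) in shSCR/L-G6pc-/- and 34.98 to 75.4 (median 52.8) in shChREBP/L-G6pc-/-. Acacb was at 42.7 to 111 CPM (median 70.7), 28.1 to 89.8 (median 45.3), 73.3 to 189 (median 102) and 62.2 to 109 (median 90.5) in the same order. The shSCR and shChREBP libraries of the L-G6pc-/- liver did not overlap for Acaca, with 75.4 against 76.2 CPM at the nearest, and overlapped for Acacb.

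Fasn (ENSMUSG00000025153, chr11:120805846-120824547, minus strand) encodes fatty acid synthase, which assembles palmitate. It was at 427 to 2052 CPM (median 578) in shSCR/L-G6pc+/+ and at 273 to 1467 CPM (median 353) in shChREBP/L-G6pc+/+, and the highest value in each was that of s6 or s12, with 931 and 488 CPM as the next highest. In the L-G6pc-/- liver it was at 1499 to 2963 CPM (median 1905) with shSCR and at 585 to 1159 CPM (median 822) with shChREBP. The L-G6pc-/- groups did not overlap, and s6 was the only shSCR/L-G6pc+/+ library inside the shSCR/L-G6pc-/- range.

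Elovl6 (chr3:129532355-129638495, plus strand) elongates palmitate to stearate and Scd1 (chr19:44394455-44407879, minus strand) desaturates stearate to oleate. Elovl6 was at 40.9 to 296 CPM (median 78.0) in shSCR/L-G6pc+/+, 32.8 to 111 (median 48.1) in shChREBP/L-G6pc+/+, 372 to 748 (median 450.2) in shSCR/L-G6pc-/- and 102 to 294 (median 183) in shChREBP/L-G6pc-/-. Scd1 was at 3800.0 to 8191 CPM (median 5273), 1374 to 6253 (median 2368), 7035 to 10729 (median 9204) and 2438 to 5540.3 (median 4216) in the same order. For both genes the shChREBP libraries of the L-G6pc-/- liver all lay below the shSCR libraries of that genotype. Scd1 has close paralogs, and reads shared with them are not resolved in the counts.

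Me1 (chr9:86581371-86695953) encodes malic enzyme, a source of the NADPH that fatty acid synthase uses, and Thrsp (chr7:97412938-97417730) encodes Spot 14, a small lipogenic protein. Me1 was at 111 to 411 CPM (median 199.7) in shSCR/L-G6pc+/+, 112 to 174 (median 141) in shChREBP/L-G6pc+/+, 364 to 654 (median 489.6) in shSCR/L-G6pc-/- and 227 to 423 (median 318) in shChREBP/L-G6pc-/-. Thrsp was at 190.1 to 2862 CPM (median 646), 121 to 1713 (median 206), 802 to 1938 (median 1543) and 244 to 1239 (median 344) in the same order. Thrsp varied widely in the L-G6pc+/+ liver, where s6 and s12 again gave the highest values of their groups and the next highest were 869.5 and 427 CPM.

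Srebf1 (ENSMUSG00000020538, chr11:60199089-60222581, minus strand) encodes SREBP1, and Pnpla3 (chr15:84167837-84187236), a lipid droplet protein, is a known SREBP1c target. Srebf1 was at 57.0 to 151 CPM (median 84.7) in shSCR/L-G6pc+/+, 20.7 to 162 (median 69.0) in shChREBP/L-G6pc+/+, 55.7 to 138 (median 108) in shSCR/L-G6pc-/- and 32.4 to 96.2 (median 65.5) in shChREBP/L-G6pc-/-. The 4 groups of Srebf1 values overlapped throughout. Pnpla3 was at 0.454 to 23.5 CPM (median 2.57), 0.473 to 3.48 (median 1.19), 2.34 to 32.7 (median 12.6) and 0.736 to 11.01 (median 2.44) in the same order, and its libraries held only 1 to 66 counts, so that its fold changes have wide errors.

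**Figure D1:**
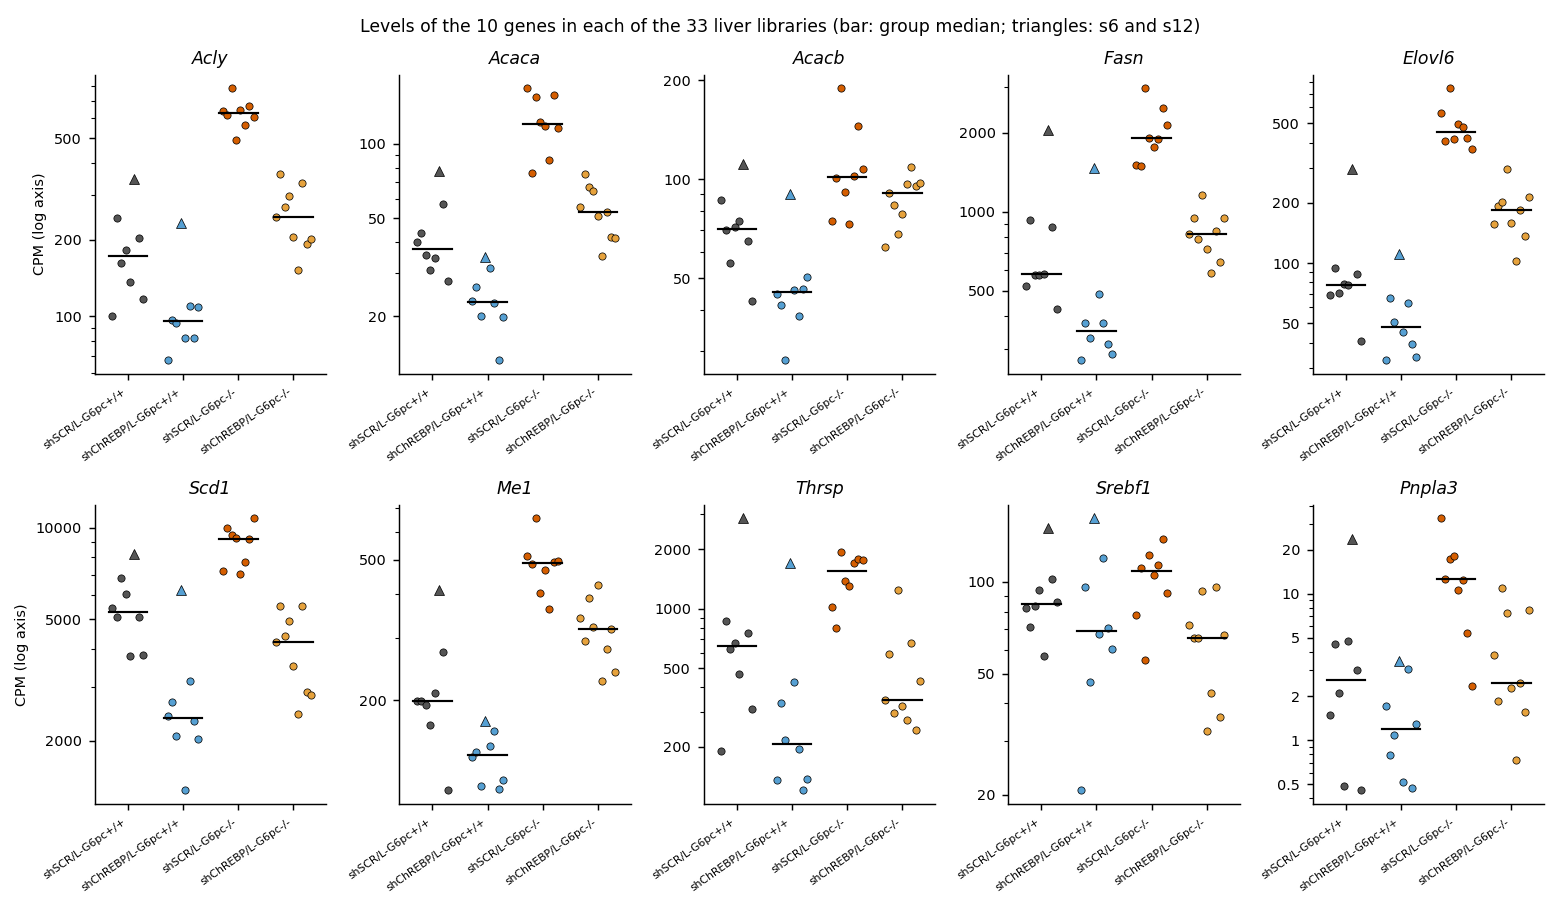
Level of each gene in CPM (log axis) for all 33 libraries, arranged by group, with bars at the group medians and triangles for libraries s6 and s12. The shSCR/L-G6pc-/- group has the highest median for each gene, and its Acly values are 495 CPM or more. The 2 triangles top their groups for all 10 genes, and the Srebf1 groups overlap.

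Ordered by group medians, 6 of the 10 genes (Acly, Acaca, Acacb, Fasn, Elovl6 and Me1) ran from shChREBP/L-G6pc+/+ through shSCR/L-G6pc+/+ and shChREBP/L-G6pc-/- to shSCR/L-G6pc-/-. Scd1, Thrsp and Pnpla3 had shChREBP/L-G6pc-/- below shSCR/L-G6pc+/+, and Srebf1 had it lowest. Which of these neighbours differed beyond their spread is given by the comparisons that follow.

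The first comparison asked what G6pc deficiency did to the lipogenic genes without a knockdown, as shSCR/L-G6pc-/- against shSCR/L-G6pc+/+. Genes from citrate cleavage to elongation rose, while Srebf1 did not pass the test. Elovl6 rose most, 4.76-fold (log2 fold change 2.25, SE 0.28, adjusted p = 8.63e-07), followed by Acly at 3.37-fold (1.75, SE 0.22, adjusted p = 9.13e-07) and Acaca at 2.89-fold (1.53, SE 0.19, adjusted p = 1.3e-06). Fasn rose 2.47-fold (1.31, SE 0.29, adjusted p = 0.00491) and Me1 2.19-fold (1.13, SE 0.17, adjusted p = 2.28e-05). Thus 5 of 10 members were called higher and 0 lower, where 2.20% of all genes tested were called higher, and 2 (Acly and Elovl6) did not overlap between groups, where 0.570% of all genes were higher without overlap.

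The other 5 members had log2 fold changes above 0 that did not pass the test in this comparison. Scd1 was at 0.67 (SE 0.21, adjusted p = 0.0735), Acacb at 0.61 (SE 0.19, adjusted p = 0.0647) and Pnpla3 at 1.41 (SE 0.50, adjusted p = 0.128). Thrsp was at 0.79 (SE 0.46, adjusted p = 0.453). Srebf1 was at 0.17 with a 95% interval of -0.34 to 0.69 (adjusted p = 0.829). The median log2 fold change of the members was 1.22, against 0.00 over all genes.

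These calls moved with library s6. Without s6, 8 members were called higher, with Acacb (adjusted p = 0.0205), Scd1 (adjusted p = 0.039) and Pnpla3 (adjusted p = 0.00116) added, and without s12, whose group is not in the comparison but shares its estimate of spread, Acacb (adjusted p = 0.0311) and Scd1 (adjusted p = 0.0188) were added. Without s6 and s12, a setting chosen after their values were seen, 9 were called, Thrsp included at a log2 fold change of 1.39 (adjusted p = 0.00848), and Srebf1 remained uncalled at 0.32 (adjusted p = 0.605).

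The second comparison asked what the knockdown did in the G6pc-sufficient liver, as shChREBP/L-G6pc+/+ against shSCR/L-G6pc+/+. All 10 members had log2 fold changes below 0, and 4 of them, the genes of acetyl-CoA supply, carboxylation, desaturation and NADPH supply, fell. Scd1 fell 1.99-fold (log2 fold change -0.99, SE 0.21, adjusted p = 0.00527), Acaca 1.82-fold (-0.86, SE 0.21, adjusted p = 0.0123), Acly 1.71-fold (-0.77, SE 0.22, adjusted p = 0.0308) and Me1 1.59-fold (-0.67, SE 0.17, adjusted p = 0.0156). Across all genes 3.23% were called lower, and 0 members had groups that did not overlap, where 0.648% of all genes were lower without overlap.

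Elovl6 was at -0.88 (adjusted p = 0.054), Acacb at -0.59 (adjusted p = 0.0635), Fasn at -0.74 (adjusted p = 0.115) and Thrsp at -1.04 (adjusted p = 0.18). Pnpla3 was at -1.77 (SE 0.68, adjusted p = 0.115) and Srebf1 at -0.17, with a 95% interval of -0.69 to 0.35 (adjusted p = 0.74). Libraries s6 and s12 pulled this comparison in opposite directions. Without s6, Acly (adjusted p = 0.0962) and Me1 (adjusted p = 0.0566) lost their calls and 2 members were left, Acaca and Scd1; the Acly call was lost as well without s2, s7, s9, s11, s13, s15 or s16 (adjusted p = 0.0513 to 0.0696). Without s6, Fasn was at -0.40 (adjusted p = 0.402), Thrsp at -0.44 (adjusted p = 0.601), Elovl6 at -0.43 (adjusted p = 0.272) and Pnpla3 at -0.73 (adjusted p = 0.554). Without s12, 8 were called lower, with Fasn at -1.23 (adjusted p = 0.00124), Thrsp at -1.91 (adjusted p = 0.00415), Elovl6 at -1.10 (adjusted p = 0.0147) and Acacb at -0.78 (adjusted p = 0.00906) added. Over the 33 fits with 1 library left out, Elovl6 was called lower in 6, Acacb in 3, and Fasn and Thrsp in 1 each. Without both, 7 were called lower, Fasn at -0.88 (adjusted p = 0.0022) and Thrsp at -1.31 (adjusted p = 0.0199) among them, while Elovl6 was not called at -0.64 (adjusted p = 0.0604).

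The third comparison asked the same in the G6pc-deficient liver, as shChREBP/L-G6pc-/- against shSCR/L-G6pc-/-. Nearly the whole synthetic route fell: 8 of 10 members were called lower and 0 higher, where 4.23% of all genes were called lower. Elovl6 fell 2.67-fold (log2 fold change -1.42, SE 0.26, adjusted p = 0.000415), Acly 2.51-fold (-1.33, SE 0.21, adjusted p = 6.95e-05), Fasn 2.44-fold (-1.29, SE 0.28, adjusted p = 0.00292) and Acaca 2.33-fold (-1.22, SE 0.18, adjusted p = 4.16e-05). Scd1 fell 2.19-fold (-1.13, SE 0.21, adjusted p = 0.000423). In these 5 genes all 9 shChREBP libraries lay below all 8 shSCR libraries, where 0.570% of all genes were lower without overlap.

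Thrsp fell 2.98-fold (-1.58, SE 0.46, adjusted p = 0.0258), Pnpla3 3.36-fold (-1.75, SE 0.50, adjusted p = 0.024) and Me1 1.54-fold (-0.62, SE 0.16, adjusted p = 0.0123), with groups that overlapped. Acacb was at -0.35 (adjusted p = 0.251) and Srebf1 at -0.69 with a 95% interval of -1.197 to -0.18 and an unadjusted p of 0.0091 (adjusted p = 0.0818). The median of the members was -1.25, against 0.01 over all genes. Without s29, s30, s32 and s33, all 10 log2 fold changes stayed below 0 and 3 members were called, Acly at -1.05 (adjusted p = 0.0195), Acaca at -0.98 (adjusted p = 0.0136) and Elovl6 at -1.24 (adjusted p = 0.0441). The 5 members that lost their calls were at -1.14 (Fasn, adjusted p = 0.116), -0.84 (Scd1, 0.0759), -0.56 (Me1, 0.154), -1.21 (Thrsp, 0.368) and -1.45 (Pnpla3, 0.276), on 5 shChREBP libraries in place of 9. The libraries kept were those with the highest Mlxipl levels of that group, 441 to 500.4 CPM. In that fit 106 of 10399 genes were called in either direction compared with 770 of 10179 before. The Thrsp call was also lost without s29, s30 or s32 alone (adjusted p = 0.0524 to 0.0568), and the Pnpla3 call without s17, s30 or s32 alone (adjusted p = 0.0504 to 0.0768). Srebf1 was called lower without s9, s19 or s31 alone (adjusted p = 0.0455 to 0.049), without s9 and s13 (adjusted p = 0.0464), and when only these groups were fitted (-0.69, adjusted p = 0.0416), and was at -0.37 (adjusted p = 0.663) without the 4 low-Mlxipl libraries.

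**Figure D2:**
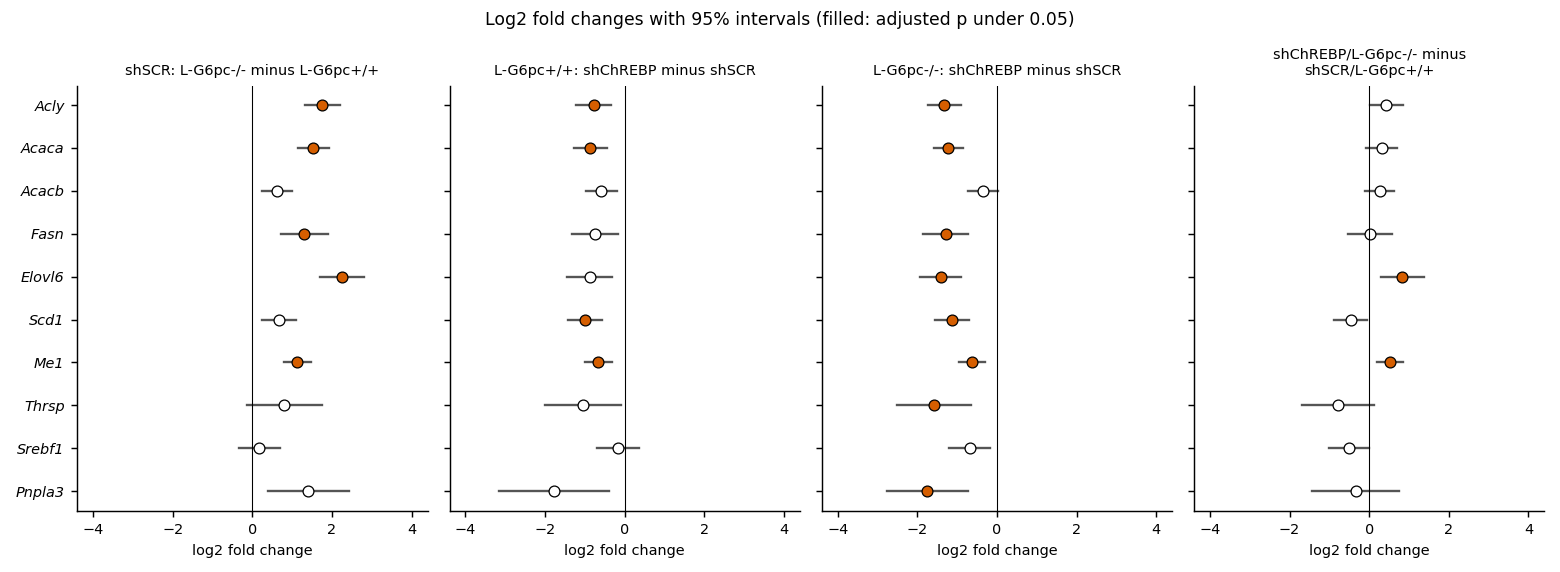
Log2 fold change of each gene (points) with its 95% interval (lines) in 4 pairwise comparisons that share groups with each other, with filled points for adjusted p under 0.05. The filled points number 5, 4, 8 and 2 from left to right, and Srebf1 is open in each panel.

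Whether the knockdown acted differently in the 2 genotypes was tested as the difference of its effects. Of the 10 members 0 passed, as did 0 at an unadjusted p under 0.05 and 0 with DESeq2 or limma-voom, where 0.0786% of all genes were called. The difference was -0.55 for Acly with a 95% interval of -1.16 to 0.05, -0.54 for Fasn (-1.35 to 0.26), -0.54 for Elovl6 (-1.30 to 0.23) and -0.52 for Srebf1 (-1.24 to 0.21). It was -0.14 for Scd1 (-0.73 to 0.46) and 0.05 for Me1 (-0.42 to 0.52). For Thrsp it was -0.53 (-1.84 to 0.78). The intervals thus still allowed knockdown effects that differed by more than 1 log2 unit for Acly, Fasn, Elovl6, Thrsp and Srebf1. With 1 library left out, the difference ran from -0.89 to -0.057 for Fasn and from -0.99 to -0.32 for Elovl6.

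**Figure D3:**
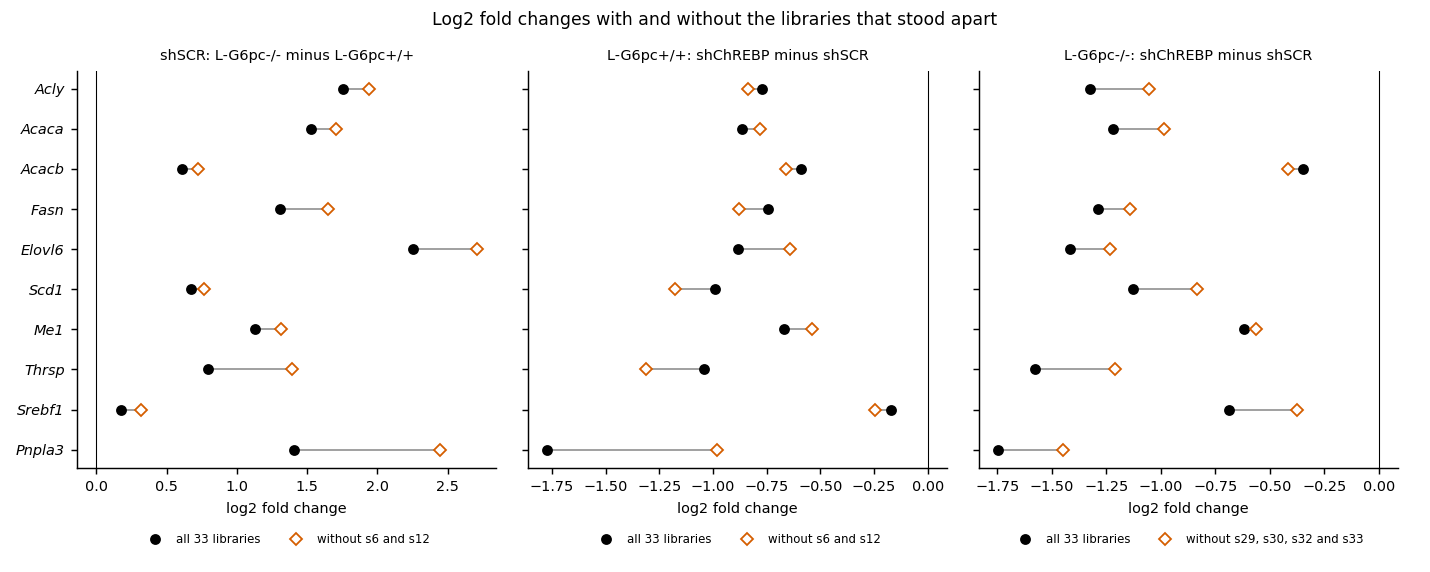
Log2 fold change of each gene with all 33 libraries (black) and without the libraries that stood apart (open diamonds, s6 and s12 in the first 2 panels, and s29, s30, s32 and s33 in the third). Every symbol stays on its side of 0, and the distance between symbols is widest for Pnpla3 in the first 2 panels, where it moved from 1.41 to 2.45 and from -1.77 to -0.98.

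The level left in the G6pc-deficient liver after the knockdown was set against the shSCR/L-G6pc+/+ liver. Of the 10 members, 2 stayed higher in shChREBP/L-G6pc-/-, Elovl6 at 1.78-fold (log2 fold change 0.83, SE 0.26, adjusted p = 0.0289) and Me1 at 1.42-fold (0.51, SE 0.16, adjusted p = 0.0298), where 6.87% of all genes were called higher. Both calls were lost when only these 2 groups were fitted (adjusted p = 0.0533 and 0.0698), without the 4 low-Mlxipl libraries (adjusted p = 0.0558 and 0.0852), and in 5 of the fits that left out 1 library, those without s1, s3, s4, s5 or s8. The Elovl6 call alone was lost without s7 or s28, and the Me1 call alone without s2, s27 or s29. Fasn was at 0.02 with a 95% interval of -0.54 to 0.58 (adjusted p = 0.978), Acly at 0.43 (0.01 to 0.85, adjusted p = 0.189) and Acaca at 0.31 (-0.07 to 0.69, adjusted p = 0.318). Scd1 was at -0.46 (-0.87 to -0.05, adjusted p = 0.144), Thrsp at -0.78 (-1.69 to 0.13, adjusted p = 0.282) and Srebf1 at -0.52 (-1.02 to -0.01, adjusted p = 0.189). A p that misses the threshold does not show that these levels were alike. Library s6, which stood apart, belongs to the reference group of this comparison. With 1 library left out, Fasn ran from -0.078 to 0.37, Elovl6 from 0.71 to 1.29 and Me1 from 0.41 to 0.70. The adjusted p over these edgeR fits ran from 6.41e-05 to 0.0666 for Elovl6 and from 0.00111 to 0.0734 for Me1. Acly ran from 0.34 to 0.62 and was called higher in 1 of these fits (adjusted p = 0.0364).

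With the knockdown in both genotypes, shChREBP/L-G6pc-/- against shChREBP/L-G6pc+/+, 5 members were called higher, where 6.14% of all genes were. Of these, Acacb was not called in the comparison under shSCR, in which Fasn was. The difference between the 2 comparisons equals the difference of the knockdown effects. By edgeR it passed for neither gene, at 0.24 for Acacb (adjusted p = 0.768) and -0.54 for Fasn (adjusted p = 0.617). Elovl6 was 3.29-fold higher (log2 fold change 1.72, SE 0.28, adjusted p = 6.21e-05), Acly 2.30-fold (1.201, SE 0.21, adjusted p = 0.000248), Me1 2.27-fold (1.18, SE 0.17, adjusted p = 8.5e-06), Acaca 2.25-fold (1.17, SE 0.20, adjusted p = 0.000171) and Acacb 1.81-fold (0.85, SE 0.19, adjusted p = 0.00277). Acaca and Me1 did not overlap between these groups, where 0.491% of all genes were higher without overlap. Fasn was at 0.76 (adjusted p = 0.0712), Scd1 at 0.53 (adjusted p = 0.0884), Thrsp at 0.26 (adjusted p = 0.771) and Srebf1 at -0.34 (adjusted p = 0.424). Without s6 and s12, 8 members were called higher, with Fasn at 1.25 (adjusted p = 4.58e-06), Scd1 at 0.82 (adjusted p = 0.00182) and Thrsp at 1.13 (adjusted p = 0.0205) added; Fasn was also called without s6 alone (adjusted p = 0.0353) or s12 alone (adjusted p = 0.000402), and Scd1 without s12 alone (adjusted p = 0.00251).

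Genes that feed or extend the pathway were read from lists of related genes. Of 39 accessory lipogenic genes tested (citrate, acetyl-CoA and NADPH supply, partner elongases and desaturases, glycerolipid synthesis), 3 rose with G6pc deficiency, 5 fell with shChREBP in L-G6pc+/+ and 7 fell with shChREBP in L-G6pc-/-, where 2.20%, 3.23% and 4.23% of all genes were called in those directions. Elovl5, an elongase of polyunsaturated fatty acids, was at 422 to 907 CPM (median 687) in shSCR/L-G6pc+/+, 246 to 497 (median 333) in shChREBP/L-G6pc+/+, 822 to 2298 (median 1443) in shSCR/L-G6pc-/- and 391 to 1198 (median 819) in shChREBP/L-G6pc-/-. It rose 2.12-fold with G6pc deficiency (adjusted p = 0.000924) and fell 1.998-fold (adjusted p = 0.00416) and 1.92-fold (adjusted p = 0.00254) with the knockdown. Pgd, which makes NADPH in the pentose phosphate pathway, rose 2.08-fold with G6pc deficiency (adjusted p = 0.000102), and Pdha1, a subunit of pyruvate dehydrogenase, 1.25-fold (adjusted p = 0.0275). Pdk1, a kinase that inhibits pyruvate dehydrogenase, fell 1.84-fold (adjusted p = 0.00212) and 2.08-fold (adjusted p = 3.37e-05) with the knockdown, and Acss2, which makes acetyl-CoA from acetate, 1.79-fold (adjusted p = 0.0321) and 2.09-fold (adjusted p = 0.00288).

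Of 35 tested genes that control SREBP1, 2 rose and 1 fell with G6pc deficiency, where 2.20% of all genes were called higher and 1.03% lower, and 2 fell with the knockdown in each genotype, where 3.23% and 4.23% of all genes were called lower. The kinase genes Sik1 (2.40-fold, adjusted p = 0.0364) and Mtor (1.42-fold, adjusted p = 0.0342) rose. Insig2, which holds SREBP in the endoplasmic reticulum, fell 1.85-fold with shChREBP in L-G6pc+/+ (adjusted p = 0.00396), as did the kinase gene Akt2 at 1.33-fold (adjusted p = 0.0379). Scap, which escorts SREBP to the Golgi, fell 1.51-fold with shChREBP in L-G6pc-/- (adjusted p = 0.00181).

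The carbohydrate targets of ChREBP rose with G6pc deficiency in 8 of 14 cases, where 2.20% of all genes were called higher. With shChREBP in L-G6pc+/+, 4 fell, Mlxipl, the target of the shRNA, among them, where 3.23% of all genes were called lower. In L-G6pc-/-, 6 fell, again with Mlxipl among them, and 1 rose with shChREBP, where 4.23% of all genes were called lower and 3.33% higher. The gene that rose was Fgf21, a hormone of the liver, at 2.90-fold (adjusted p = 0.0142), named after its value was seen. Pklr, pyruvate kinase of the liver, was at 65.9 to 195 CPM (median 122), 54.9 to 100.3 (median 62.9), 232 to 461 (median 304) and 128 to 269.8 (median 204) in the order of groups used above. It rose 2.54-fold with G6pc deficiency (adjusted p = 8.68e-07) and fell 1.78-fold (adjusted p = 0.00347) and 1.49-fold (adjusted p = 0.0169) with the knockdown. Khk, ketohexokinase, rose 2.10-fold with G6pc deficiency (adjusted p = 6.03e-08).

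Genes of cholesterol synthesis, which SREBP2 controls and which share the acetyl-CoA precursor, mostly did not pass the test in the first comparison. Of 21 tested, 1 rose and 1 fell with G6pc deficiency, where 2.20% of all genes were called higher and 1.03% lower. The gene that fell was Msmo1, 2.02-fold lower (adjusted p = 0.00158). The list had a median log2 fold change of -0.26 against 1.22 for the members. The difference between the lists was not tested. With the knockdown 6 fell in L-G6pc+/+, led by Cyp51 at 1.72-fold (adjusted p = 0.00347), where 3.23% of all genes were called lower. In L-G6pc-/- 3 fell, where 4.23% of all genes were called lower. Among these 3 were Tm7sf2 at 1.92-fold (adjusted p = 0.000887) and Stard4 at 1.78-fold (adjusted p = 0.000842). In shChREBP/L-G6pc-/- against shSCR/L-G6pc+/+, 9 of 21 were lower, where 6.37% of all genes were called lower.

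Within groups, the enzymes were compared with Srebf1 and with Mlxipl over the 33 libraries, on log2 CPM less the group mean, in 19 relations (permutation tests within groups with 100000 resamples, two-sided, Benjamini-Hochberg adjusted). With Srebf1, 5 of 9 passed: Thrsp with r = 0.57 and rho = 0.47 (adjusted p = 0.0134 and 0.0287), Acly with r = 0.57 and rho = 0.50 (adjusted p = 0.0134 and 0.0236), Scd1 with r = 0.57 and rho = 0.59 (adjusted p = 0.0191 and 0.00703), Fasn with r = 0.55 and rho = 0.50 (adjusted p = 0.0189 and 0.0236) and Elovl6 with r = 0.52 and rho = 0.49 (adjusted p = 0.0134 and 0.0253). Without s9 and s12, the 2 libraries farthest from the median of Srebf1, r was 0.46, 0.42, 0.59, 0.40 and 0.39. Without s6 and s12, r was 0.37 for Thrsp, 0.39 for Acly, 0.39 for Scd1, 0.32 for Fasn and 0.33 for Elovl6, and none passed (adjusted p = 0.111 to 0.174). Without s29, s30, s32 and s33, r was 0.48 to 0.53 and none passed either (adjusted p = 0.0966 to 0.137). In shSCR/L-G6pc-/- alone the 8 libraries gave r = -0.81 for Elovl6 and -0.65 for Acly, where s19 had the lowest Srebf1 level and the highest Elovl6, Fasn and Acly levels, whereas r was 0.68 and 0.72 in the 9 shChREBP/L-G6pc-/- libraries. A difference between groups in r was not tested.

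With Mlxipl, 4 of 10 passed: Acaca with r = 0.51 and rho = 0.57 (adjusted p = 0.0131 and 0.00703), Elovl6 with r = 0.39 and rho = 0.48 (adjusted p = 0.032 and 0.0253), Thrsp with r = 0.38 and rho = 0.41 (adjusted p = 0.0392 and 0.053) and Fasn with r = 0.33 and rho = 0.42 (adjusted p = 0.0375 and 0.0311). Without s30 and s32, which were farthest from the median of Mlxipl, r was 0.45, 0.29, 0.32 and 0.27. Without s29, s30, s32 and s33, 0 of 10 passed, Acaca at r = 0.47 (adjusted p = 0.0966). Without s6 and s12, 1 of 10 passed, Acaca at r = 0.55 (adjusted p = 0.015), with Elovl6 at 0.48 (adjusted p = 0.0901), Fasn at 0.42 (adjusted p = 0.0901) and Thrsp at 0.43 (adjusted p = 0.111). In the shChREBP/L-G6pc-/- group alone r with Mlxipl was 0.87 for Srebf1, 0.82 for Acly and 0.80 for Acaca, whereas Srebf1 gave -0.03, -0.10 and -0.43 in the other three groups. All of these values share library size and composition.

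**Figure D4:**
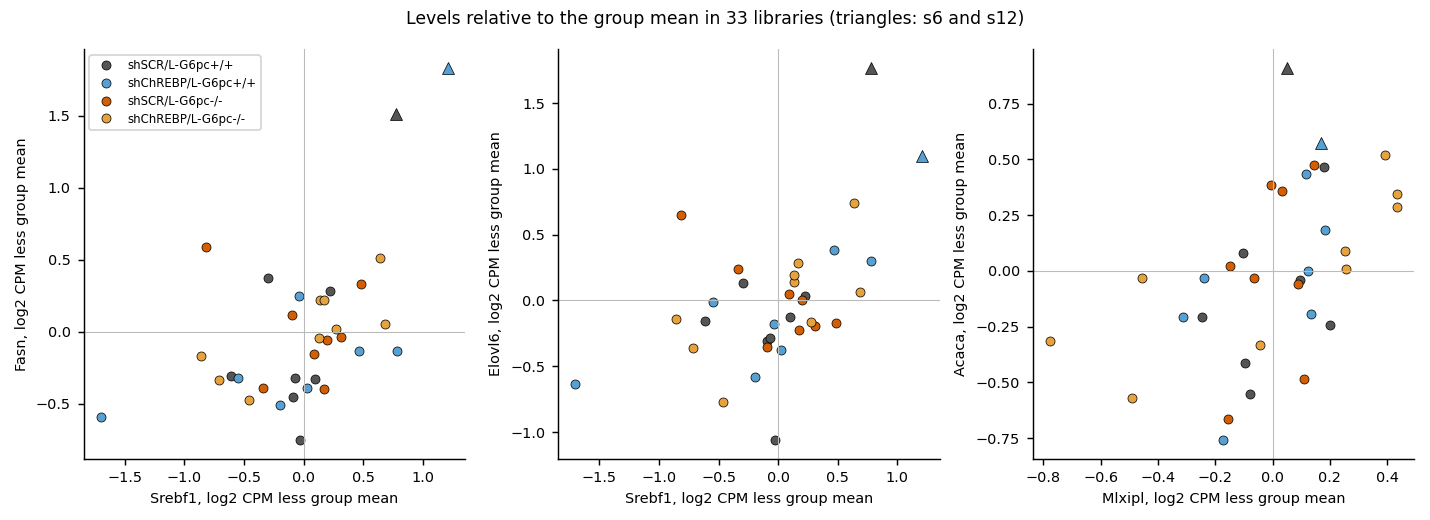
Log2 CPM less the group mean in the 33 libraries, for Fasn and Elovl6 against Srebf1 and for Acaca against Mlxipl, coloured by group, with triangles for s6 and s12. The triangles lie at the upper right of the first 2 panels, where r is 0.55 and 0.52, and the third panel has r = 0.51.

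Among the 5 genes whose within-group pattern was most like that of Fasn over the 33 libraries were Chrna4 (r = 0.77), Slc25a44 (0.76), Hes6 (0.74) and Acsl5 (0.70), which without s6 and s12 had r = 0.72, 0.48, 0.46 and 0.52. The 5 most like Srebf1 were Leap2 (0.75), Edem1 (0.75), Ndufc2 (0.75), Mid1ip1 (0.74) and Klf15 (0.74), of which Mid1ip1 encodes a paralog of Spot 14, and without s6 and s12 these had r = 0.66 to 0.75. These values are descriptions with no test.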

How the data were processed

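The authors deposited a table of raw counts per gene, made from QuantSeq reads aligned to GRCm38 (Ensembl release 82) with HISAT, sorted with SAMtools and counted with HTSeq, and a second deposited table of voom values, used here as a signal (count plus 0.5 divided by a number for each library, checked on the values); versions are not given in the sources used here. Groups came from the sample labels. Counts were tested with edgeR 4.0.16 (R 4.3.3, quasi-likelihood, TMM scaling, filterByExpr with a minimum count of 10 and total of 15), with the 4 groups fitted together and Benjamini-Hochberg adjustment over 10179 genes, and a gene was called at an adjusted p under 0.05. CPM are counts divided by the TMM-scaled library total and brought to a common total, and standard errors are the log2 fold change over the square root of F. For Pnpla3 this gave 0.45 for the difference of effects, below the 0.68 and 0.50 of the 2 effects it compares. The standard errors and intervals of Pnpla3 are thus approximate. Totals of 1497843 to 3546852 counts set the precision. DESeq2 1.42.0 and limma 3.58.1 were alternatives, and the tests were checked on simulated data. Named genes were the 10 members, Mlxipl, G6pc, Pklr, up to 4 genes of each related list with the smallest p in each of the first 3 comparisons, defining cell markers, and the 5 genes most like Fasn and Srebf1 (mean of at least 5 CPM). The members and lists were chosen with earlier results of these data known. Libraries s9 and s13, and s29, s30, s32 and s33, were left out as alternatives because earlier results had set them apart. Some genes that this rule names are not reported here.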

Additional observations from a re-analysis of the deposited data

Results flagged for a closer look

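Of 40 sets of values examined (10 genes in 4 groups), 11 held a library far from the rest of its group by Dixon's test at the 95% level, where chance gives about 1 in 20, or 2 sets. That rate holds for independent sets of normally distributed values. The sets here were CPM without a log and shared libraries, and 6 of the 11 were of s12 and 4 of s6, so the 11 are not separate events. In shChREBP/L-G6pc+/+, library s12 stood above the other 7 for Acly (232 CPM), Acacb (89.8 CPM), Fasn (1467 CPM), Elovl6 (111 CPM), Scd1 (6253 CPM) and Thrsp (1713 CPM). In shSCR/L-G6pc+/+, library s6 stood above the other 7 for Fasn (2052 CPM), Elovl6 (296 CPM), Thrsp (2862 CPM) and Pnpla3 (23.5 CPM). In shChREBP/L-G6pc-/-, library s28 stood apart for Thrsp (1239 CPM, next 669 CPM).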

How the results depend on the processing

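Calls were recomputed under other scalings, filters, tools and sets of libraries. With quality weights in limma-voom 8 members were called with G6pc deficiency and 7 with shChREBP in L-G6pc+/+, and without s6 and s12 (chosen after the data were seen) 9 and 7, with 8 for G6pc deficiency under shChREBP. Without s29, s30, s32 and s33 the knockdown in L-G6pc-/- called 3, and the comparison of shChREBP/L-G6pc-/- with shSCR/L-G6pc+/+ called 0, as it did when only those groups were fitted. Within-group correlations called numbered 0 with Srebf1 and 0 with Mlxipl without those 4 libraries, and 0 and 1 without s6 and s12. Leaving out 1 library at a time gave 5 to 8 members with G6pc deficiency, 2 to 8 and 6 to 9 with the knockdown in L-G6pc+/+ and L-G6pc-/-, 0 to 3 between shChREBP/L-G6pc-/- and shSCR/L-G6pc+/+, 5 to 7 with G6pc deficiency under shChREBP and 0 for the difference of effects.

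Signs turned only for values that were not called. Srebf1 in L-G6pc+/+ was at 0.024 without s9 and s13. For the difference of effects, Me1 was at -0.030 (limma-voom), -0.031 (deposited values) and -0.080 (without s6 and s12), Scd1 at 0.012 (quality weights), 0.16 (without the 4 libraries) and 0.048 (without s6 and s12), and Pnpla3 at -0.86 (limma-voom), -0.60 (quality weights), -0.87 (deposited values), -0.082 (without s9 and s13) and -0.77 (without s6 and s12). Pnpla3 in shChREBP/L-G6pc-/- against shSCR/L-G6pc+/+ was at 0.12, 0.29, 0.28 and 0.70 with limma-voom, quality weights, deposited values and without s6 and s12. With 1 library left out, the difference of effects ran from -0.24 to 0.15 for Scd1, -0.13 to 0.15 for Me1, -1.13 to 0.34 for Thrsp and -1.01 to 0.33 for Pnpla3. Between shChREBP/L-G6pc-/- and shSCR/L-G6pc+/+, Fasn ran from -0.078 to 0.37 and Pnpla3 from -0.58 to 0.70, and Thrsp ran from -0.047 to 1.13 with G6pc deficiency under shChREBP. Without the 4 libraries r with Mlxipl was 0.16 for Acacb, -0.034 for Scd1 and -0.14 for Srebf1, and without s6 and s12 r with Srebf1 was -0.15 for Acacb and -0.11 for Me1. The cause of these changes was not tested.

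Over all genes, the knockdown in L-G6pc-/- called 770 genes and 106 without the 4 libraries, the comparison of shChREBP/L-G6pc-/- with shSCR/L-G6pc+/+ 1347 and 321, the knockdown in L-G6pc+/+ 549 and 877 with quality weights, and the difference of effects 8, against 3 to 76 under other settings. With scaling by library size only, the share of calls that were higher moved from 68.1% to 57.6% with G6pc deficiency, from 44.0% to 75.8% with the knockdown in L-G6pc-/-, where the median log2 fold change of all genes was 0.11, from 51.9% to 68.2% between shChREBP/L-G6pc-/- and shSCR/L-G6pc+/+, and from 55.6% to 74.0% with G6pc deficiency under shChREBP. No paired analysis was possible because the groups share no replicate numbers. At 1 to 66 counts per library, depth limits what can be said of Pnpla3.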

Other observations

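Markers of other liver cell types were read beside the lipogenic genes. The summed level of 12 macrophage markers was 1122 to 1923 CPM in shSCR/L-G6pc+/+, 1114 to 2938 in shChREBP/L-G6pc+/+, 1031 to 2465 in shSCR/L-G6pc-/- and, with shChREBP in that genotype, 1638 to 2522, and 3 of the 12 genes were called higher with the knockdown in L-G6pc-/-. Of 10 adipocyte markers 3 were tested, and 1 was called higher with G6pc deficiency. Of 10 endothelial markers 1 was called higher with the knockdown in L-G6pc-/-, and of 10 stellate cell markers 0 were called with G6pc deficiency or with the knockdown in either genotype. Of 8 cholangiocyte markers and of 10 lymphocyte and neutrophil markers, 2 each were tested, and 0 were called in those comparisons. Of 11 hepatocyte markers 1 was called lower with G6pc deficiency and 3 with the knockdown in L-G6pc-/-. Beside these counts, 2.20% of all genes were called higher and 1.03% lower with G6pc deficiency. With the knockdown in L-G6pc-/- these shares were 3.33% higher and 4.23% lower. The part of these markers in the lipogenic results was not tested.

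The libraries that topped their groups for the lipogenic genes also ranked high for cholesterol synthesis. Library s6 was the highest of its group for 12 of 21 cholesterol genes and s12 for 17 of 21, where they were highest for 12.7% and 13.5% of all genes tested. Library s19 was the highest of the 8 shSCR/L-G6pc-/- libraries for 15 of 21, and for 6 of the 10 lipogenic genes, where it was highest for 15.3% of all genes tested. It had the lowest Srebf1 level of its group, 55.7 CPM. Library s30 was the lowest of the 9 shChREBP/L-G6pc-/- libraries for 7 of the 10 lipogenic genes, where it was lowest for 12.4% of all genes tested.

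The summed CPM of the 10 genes was set against the TMM-scaled library total of the genes tested. The 10 genes together took 0.498% to 1.45% of it (median 0.757%) in shSCR/L-G6pc+/+ and 0.271% to 1.02% (median 0.314%) in shChREBP/L-G6pc+/+. Scd1 supplied most of the sum in every library. In L-G6pc-/- they took 1.18% to 1.70% (median 1.42%) with shSCR and 0.395% to 0.849% (median 0.632%) with shChREBP, and these ranges did not overlap.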
